A study of Mus musculus with 9 samples.

Results

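This account covers 10 mouse genes of the oxidant and metal defence, the NRF2 gene Nfe2l2, its inhibitor gene Keap1, 6 NRF2 target genes and the metallothionein genes Mt1 and Mt2. They were taken by symbol, and each had 1 probe set, so that all 10 stood among the 19938 genes tested. The series holds 9 Affymetrix Mouse Gene 1.0 ST arrays of immortalized mouse embryonic fibroblasts of ICR background, 3 for each of 3 short hairpin RNAs (shRNAs). Every group had been infected for 2 h with an adenovirus that made its shRNA, at 1e8 pfu per ml, and was kept for 70 h at 37 degrees in medium with 10% serum. The control shRNA is a scrambled one by its title, and the others were directed against HSF1, the heat shock transcription factor, and RPA1, the large subunit of a single-stranded DNA binding complex. No group was uninfected, and the labels name neither clones nor separate cultures, so p-values measure only the spread between these arrays.

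NRF2 is a transcription factor that KEAP1 holds at the cullin 3 ubiquitin ligase, which keeps its level low. Oxidants and electrophiles modify KEAP1, NRF2 then builds up, pairs with a small MAF protein and binds antioxidant response elements, while BACH1 can occupy the same elements as a repressor. Metallothioneins are small cysteine-rich proteins that bind zinc, copper and cadmium, and their genes respond to zinc through the factor MTF1 at metal response elements. In fibroblasts both systems respond to oxidants, metals and other stress.

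The promoter windows of the members are shown first because they hold the elements named above. RefSeq sequences (GRCm38.p6) of 250 bases before to 50 after an annotated start were given for 8 of the 10 members, in 10 windows, 3 of them for Txnrd1. Both strands were searched for the antioxidant response element core TGACNNNGC, the metal response element cores TGCACNC and TGCGCNC, and the heat shock element pairs GAANNTTC and TTCNNGAA. The related antioxidant form TGAGNNNGC was added after the sequences had been read. The stretches below end before the first annotated base of the gene, except that of Mt1, and capitals mark whole matches. Srxn1 was chosen as the member called higher under both knockdowns in every alternative, Gclm as a second gene that rose in both, and Mt2 and Mt1 as neighbours on chromosome 8.
Srxn1, chr2:152105274-152105523, plus strand: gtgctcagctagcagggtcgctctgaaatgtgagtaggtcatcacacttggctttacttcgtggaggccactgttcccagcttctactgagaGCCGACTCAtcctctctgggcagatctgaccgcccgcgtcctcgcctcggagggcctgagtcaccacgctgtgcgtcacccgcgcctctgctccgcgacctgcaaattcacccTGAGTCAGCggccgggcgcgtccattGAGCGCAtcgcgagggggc
Gclm, chr3:122245307-122245486, plus strand: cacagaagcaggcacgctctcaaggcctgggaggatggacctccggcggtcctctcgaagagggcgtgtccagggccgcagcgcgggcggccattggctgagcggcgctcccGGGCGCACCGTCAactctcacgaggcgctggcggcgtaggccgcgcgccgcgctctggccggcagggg
Mt2, chr8:94172368-94172617, plus strand: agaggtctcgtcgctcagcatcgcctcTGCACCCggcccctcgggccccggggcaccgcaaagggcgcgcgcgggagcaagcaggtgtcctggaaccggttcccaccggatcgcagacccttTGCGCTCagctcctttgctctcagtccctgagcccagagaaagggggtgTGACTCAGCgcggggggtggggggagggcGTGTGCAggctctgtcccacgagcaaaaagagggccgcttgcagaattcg
Mt1, chr8:94179091-94179115, plus strand: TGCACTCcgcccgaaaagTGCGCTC

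The Srxn1 stretch has the related form at positions -45 to -37 (TGAGTCAGC) and, on the minus strand, at -158 to -150, with a metal core at -19 to -13. The fixed core stood after the start, at 29 to 37. In Gclm the fixed core lay on the minus strand at -134 to -126 and shared bases with a metal core at -138 to -132. The Gclm window held 3 metal cores in all. Mt2 had TGACTCAGC at -79 to -71 and 4 metal cores, 3 of them before the start. Mt1 had 3 metal cores, of which only that at -23 to -17 lay before the start, and 0 antioxidant cores. The first annotated base of Mt1 (94178883) lies inside its window (94178839 to 94179138), which thus holds few bases before the gene. The fixed antioxidant core was in 5 of the 10 windows (1 each of Nfe2l2, Srxn1, Gclm, Mt2 and Txnrd1), against 12.4% of all 32851 windows. The related form was in 1 of 10 windows, that of Srxn1, against 17.6% of all windows. With either form the count of members was 5. A metal core was in 4 of 10 windows against 25.7%, and a heat shock pair in 0 of 10 against 15.1%. These matches are letters in a short window and no sites shown to be used.

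**Figure D1:**
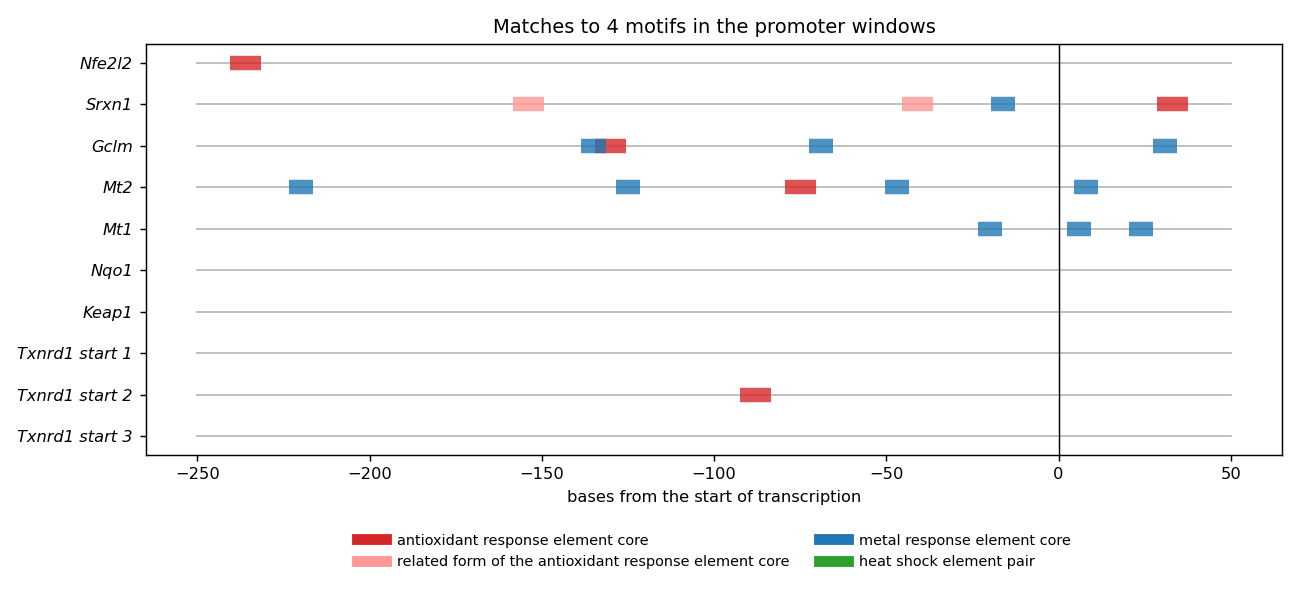
Positions of motif matches in the 10 promoter windows of 8 members, in bases from the annotated start of transcription (vertical line), each line a window and each block a match on either strand. Mt2 carries 4 metal response element cores, Mt1 and Gclm carry 3 each, and no window holds a heat shock element pair.

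All values are deposited log2 signals, with 1 value for a gene and array, so a difference of 1 is a doubling. Rpa1 read 11.40, 11.42 and 11.41 in the control arrays and 9.42, 9.34 and 9.40 under RPA1 shRNA, so the labels of these groups hold for the targeted gene. The level of Hsf1 was not analysed here. The fibroblast markers Vim (means 14.01 to 14.11), Col1a1 (12.47 to 13.03) and Dcn (12.25 to 13.04) gave high signals in every group, whereas Thy1 (7.95 to 8.13) and Fap (highest mean 6.21) gave lower ones. Summed on the linear scale, the 9 fibroblast markers lay at 46700 to 47700 in the control arrays, 42000 to 43200 under HSF1 shRNA and 34300 to 36600 under RPA1 shRNA. At a limma adjusted p under 0.05, 3 of the 9 were lower under HSF1 shRNA, against 6.21% of all genes. Under RPA1 shRNA 6 were lower, against 14.7%, and 0 were higher under either. Those 6 included Col1a1 (-0.56 ± 0.10, limma adjusted p = 0.0026) and Dcn (-0.79 ± 0.15, 0.0032), and Pdgfra fell most (-1.70 ± 0.07, 1.5e-06). In RNA from whole cultures, fewer cells of a kind and less RNA in each cell cannot be told apart. RPA1 shRNA array 3 was the least like its group (mean correlation 0.994, against 0.996 and 0.997), and in 7 of the 10 members its difference from the control mean was the smallest of the 3. The median of the tested genes was 8.46 in HSF1 shRNA array 1, against 8.35 to 8.38 in all other arrays.

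Equal deposited values recur in this table and bear on the spread of some members. In 44.9% of genes at least 2 of the 9 arrays carried an identical value, and in 1.77% all 3 control arrays did. Among the members 6 had such values. Mt1 was the extreme case, with 12.36 in each control array.

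Of the regulators, Nfe2l2 was called in neither comparison with the control, and Keap1 was called lower under RPA1 shRNA only. Nfe2l2, the NRF2 gene, read 11.84, 11.90 and 11.93 in the control arrays, 11.86, 11.85 and 11.84 under HSF1 shRNA and 12.07, 12.06 and 11.90 under RPA1 shRNA. Arrays 1 and 2 of the RPA1 group stood above every control array, and array 3 lay inside the control range. Its difference from the control was -0.04 ± 0.06 (SE, limma adjusted p = 0.72, 95% interval -0.16 to 0.09, n = 3 arrays per group) under HSF1 shRNA and 0.12 ± 0.06 (adjusted p = 0.15, interval -0.01 to 0.25) under RPA1 shRNA. Without RPA1 shRNA array 3 the latter was 0.17 (limma adjusted p = 0.015).

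Keap1, whose product marks NRF2 for degradation, read 9.69, 9.84 and 9.68 in the control arrays, 9.68, 9.71 and 9.66 under HSF1 shRNA and 9.43, 9.46 and 9.63 under RPA1 shRNA. All 3 RPA1 arrays were below the lowest control array. It fell by 0.23 ± 0.07 under RPA1 shRNA (limma adjusted p = 0.025), and stood at -0.05 ± 0.07 under HSF1 shRNA (adjusted p = 0.68, 95% interval -0.20 to 0.10). Omission of control array 2 ended the call (-0.18, limma adjusted p = 0.094), as did that of array 1 (-0.19, 0.092) or array 2 (-0.21, 0.078) of the RPA1 group, or a fit to the control and RPA1 arrays alone (0.062).

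**Figure D2:**
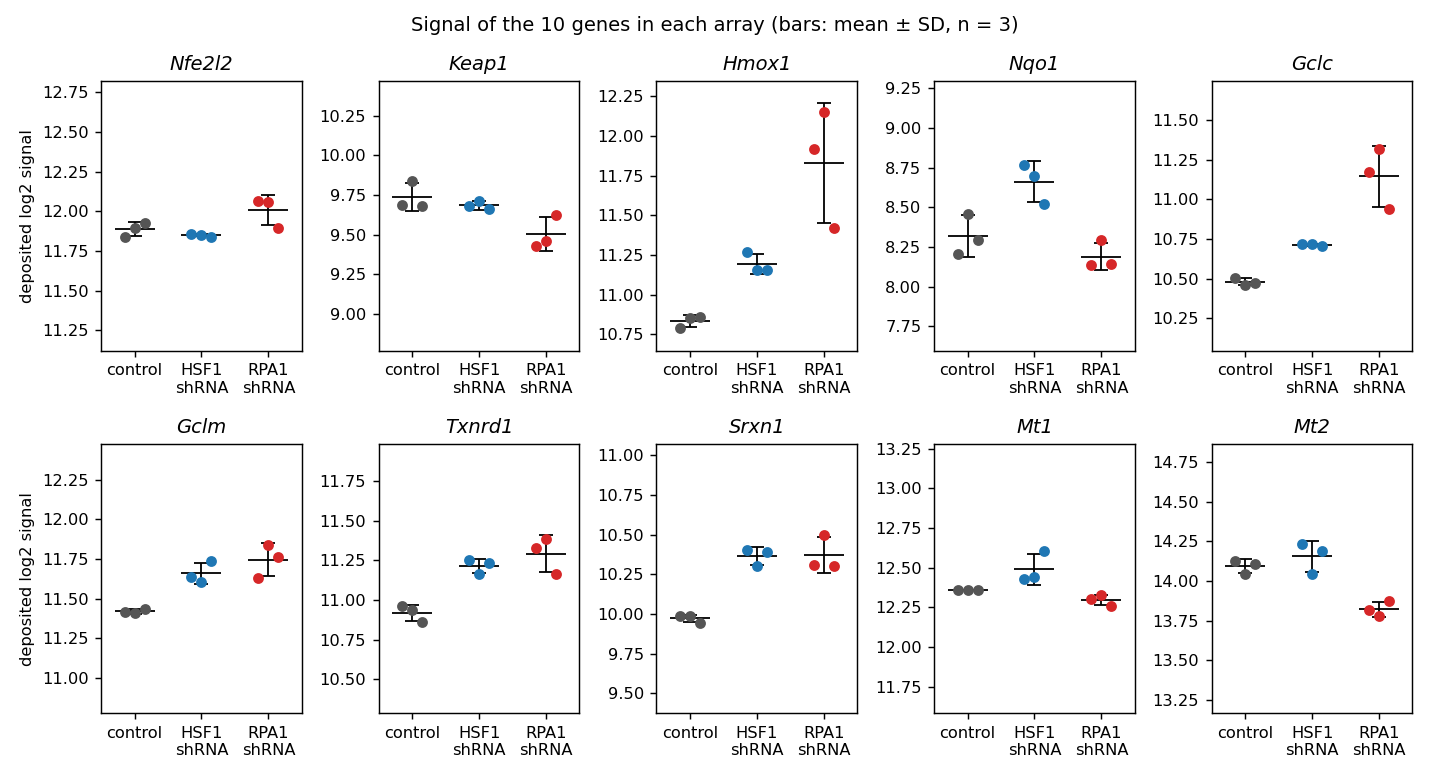
Deposited log2 signal of each of the 10 genes in each array (points) with the mean and SD of 3 arrays, by shRNA. Each panel spans the same height on the log2 axis, which does not start at 0. Hmox1 and Gclc step up from control to HSF1 to RPA1 shRNA, while Mt2 lies lowest under RPA1 shRNA.

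Under HSF1 shRNA 4 of the 10 members rose and 0 fell, against 16.1% of all genes called in either direction and 9.89% called higher. The 4 were Nqo1, Gclm, Txnrd1 and Srxn1, with rises of 1.18-fold to 1.31-fold. The median difference of the members was 0.24, against 0.04 over all genes tested. In 7 of 10 members the 3 HSF1 arrays and the 3 control arrays did not overlap, which was so for 37.9% of all genes. Under RPA1 shRNA 5 members rose (Hmox1, Gclc, Gclm, Txnrd1 and Srxn1) and 2 fell (Keap1 and Mt2), against 30.1% of genes called, 15.4% higher and 14.7% lower. The median there was 0.22, against 0.02 over all genes, and 8 of 10 members did not overlap, against 41.0% of genes. With 3 arrays in each group the smallest p of an exact permutation test is 0.1, so each call rests on limma's variance model. The 2 knockdowns share their control arrays.

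The HSF1 count was sensitive to single arrays. Leaving out control array 1, or array 1 or 3 of the HSF1 group, gave 2 rises. Leaving out control array 3 gave 1, and leaving out array 3 of the RPA1 group gave 6. The 2 falls under RPA1 shRNA became 1 without control array 2, RPA1 shRNA array 1 or RPA1 shRNA array 2, in each case through the loss of Keap1.

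Hmox1 encodes haem oxygenase 1, which breaks haem down to biliverdin, iron and carbon monoxide. It read 10.79, 10.86 and 10.86 in the control arrays, 11.27, 11.16 and 11.16 under HSF1 shRNA and 11.92, 12.15 and 11.42 under RPA1 shRNA. The 3 groups did not overlap, and their order was control, HSF1 and RPA1 shRNA. It rose 1.99-fold under RPA1 shRNA (1.00 ± 0.15, limma adjusted p = 0.00085), the largest difference of any member in these comparisons, and its SD there was 0.38, against 0.04 in the control arrays. Without RPA1 shRNA array 3 the rise was 1.20. Under HSF1 shRNA the difference of 0.36 ± 0.15 (95% interval 0.03 to 0.70) did not pass (limma adjusted p = 0.14). That test uses a spread pooled over all groups, and it passed with only the 6 arrays compared (adjusted p = 0.0025) or without RPA1 shRNA array 3 (0.0045).

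Macrophages are rich in haem oxygenase, and their markers moved with Hmox1 in part. Of 8 markers of macrophages and other blood cells 3 were higher and 0 lower under RPA1 shRNA, where 15.4% of all genes were higher, and 2 were higher and 0 lower under HSF1 shRNA, against 9.89%. The list had a summed linear level of 1000 to 1090 in control, 1230 to 1240 in HSF1 shRNA and 1770 to 2390 in RPA1 shRNA arrays. Cd68, a lysosomal protein gene on that list, rose by 2.06 ± 0.17 under RPA1 shRNA (limma adjusted p = 2.8e-05). Its means of 8.23 in control and 10.28 in RPA1 shRNA arrays were the highest of the list in both groups. The summed level therefore reflects this 1 gene more than any other and is no measure of the whole list. Lyz2, the lysozyme gene, rose by 0.50 ± 0.07 (limma adjusted p = 0.0012) under HSF1 and 0.52 ± 0.07 (0.00033) under RPA1 shRNA, and Csf1r, the receptor gene of a macrophage growth factor, by 0.27 ± 0.07 (0.032) and 0.35 ± 0.07 (0.0046). Both gave low signals, with group means of 6.14 to 6.66 for Lyz2 and 7.11 to 7.47 for Csf1r. Their means over all arrays were at percentiles 19.6 and 34.4 of all genes. The other 5 did not pass in either, among them Ptprc (means 5.96 to 6.09) and Adgre1 (5.99 to 6.08), which define blood cells and macrophages, and Cd68 stood at 0.48 ± 0.17 under HSF1 shRNA (limma adjusted p = 0.083). The part of such cells in the Hmox1 result was not tested. Of the other marker lists, 1 of 7 epithelial and 1 of 5 endothelial genes was higher and 0 lower under each knockdown, and 0 of 4 hepatocyte genes passed, counts to be read against the same shares of all genes.

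Glutathione synthesis begins with glutamate cysteine ligase, whose catalytic subunit is encoded by Gclc and its modifier subunit by Gclm. Gclc read 10.50, 10.46 and 10.47 in the control arrays, 10.72, 10.72 and 10.70 under HSF1 shRNA and 11.17, 11.32 and 10.94 under RPA1 shRNA. The groups did not overlap and had the same order as those of Hmox1. It rose 1.59-fold under RPA1 shRNA (0.66 ± 0.08, limma adjusted p = 0.00029). Under HSF1 shRNA it stood at 0.23 ± 0.08 (limma adjusted p = 0.089, 95% interval 0.05 to 0.42), and it passed with only the 6 arrays compared (0.0046), without RPA1 shRNA array 2 (0.036) or without RPA1 shRNA array 3 (0.0073).

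Gclm read 11.41, 11.41 and 11.44 in the control arrays, 11.63, 11.61 and 11.74 under HSF1 shRNA and 11.63, 11.84 and 11.76 under RPA1 shRNA. Both knockdown groups lay above the controls and overlapped each other. It rose by 0.32 ± 0.06 under RPA1 shRNA (limma adjusted p = 0.0032) and by 0.24 ± 0.06 under HSF1 shRNA (0.028). The HSF1 call was lost with median scaling (limma adjusted p = 0.065) and without control array 1 (0.083), 2 (0.084) or 3 (0.074) or HSF1 shRNA array 1 (0.057) or 3 (0.1).

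Txnrd1 encodes thioredoxin reductase 1, which returns oxidized thioredoxin to its reduced form. Its signals were 10.96, 10.94 and 10.86 in the control arrays, 11.25, 11.16 and 11.23 under HSF1 shRNA and 11.33, 11.39 and 11.16 under RPA1 shRNA. Both knockdown groups were above all controls. The rises were 0.29 ± 0.06 under HSF1 shRNA (limma adjusted p = 0.013) and 0.37 ± 0.06 under RPA1 shRNA (0.002). The former call was lost without control array 3 (limma adjusted p = 0.06) or HSF1 shRNA array 3 (0.051).

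Srxn1 encodes sulfiredoxin, the enzyme that repairs overoxidized peroxiredoxins. It read 9.98, 9.99 and 9.95 in the control arrays, 10.40, 10.30 and 10.39 under HSF1 shRNA and 10.31, 10.50 and 10.30 under RPA1 shRNA. The knockdown groups overlapped, and all their arrays lay above the highest control array. It rose 1.31-fold under HSF1 shRNA (0.39 ± 0.06, limma adjusted p = 0.0031) and 1.32-fold under RPA1 shRNA (0.40 ± 0.06, 0.0011). Both calls held in all 16 alternatives run.

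Nqo1, the gene of the quinone reductase often used as a readout of NRF2, was called in the HSF1 comparison and not in the RPA1 comparison. It read 8.20, 8.46 and 8.30 in the control arrays, 8.77, 8.70 and 8.52 under HSF1 shRNA and 8.14, 8.29 and 8.14 under RPA1 shRNA. Its mean over all arrays, 8.39, was the lowest of the members and at percentile 50.1 of all genes. The HSF1 arrays were above all others, and the RPA1 arrays overlapped the controls. It rose by 0.34 ± 0.09 under HSF1 shRNA (limma adjusted p = 0.024) and stood at -0.13 ± 0.09 under RPA1 shRNA (0.3, 95% interval -0.32 to 0.06). The rise lost its call when array 1 (0.28, limma adjusted p = 0.091) or 3 (0.33, 0.083) of the control group was left out, and when array 1 (0.29, 0.083) or 2 (0.32, 0.082) of the HSF1 group was.

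The metallothionein genes gave high signals in all groups. Mt2 read 14.13, 14.05 and 14.11 in the control arrays, 14.24, 14.05 and 14.19 under HSF1 shRNA and 13.82, 13.78 and 13.87 under RPA1 shRNA. The RPA1 arrays lay below all others, and the HSF1 and control arrays overlapped. It fell by 0.27 ± 0.06 under RPA1 shRNA (limma adjusted p = 0.0067), a call that held in all 16 alternatives, and stood at 0.06 ± 0.06 under HSF1 shRNA (0.55, 95% interval -0.07 to 0.20).

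Mt1 read 12.36 in all 3 control arrays, 12.43, 12.44 and 12.60 under HSF1 shRNA and 12.30, 12.32 and 12.26 under RPA1 shRNA. The HSF1 arrays were above and the RPA1 arrays below that value. Neither difference passed, with 0.13 ± 0.06 under HSF1 shRNA (limma adjusted p = 0.16, 95% interval 0.00 to 0.25) and -0.07 ± 0.06 under RPA1 shRNA (0.44, interval -0.19 to 0.06). Mt1 and Mt2 are close relatives, and probes of one may bind transcripts of the other, so their values may not be independent.

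**Figure D3:**
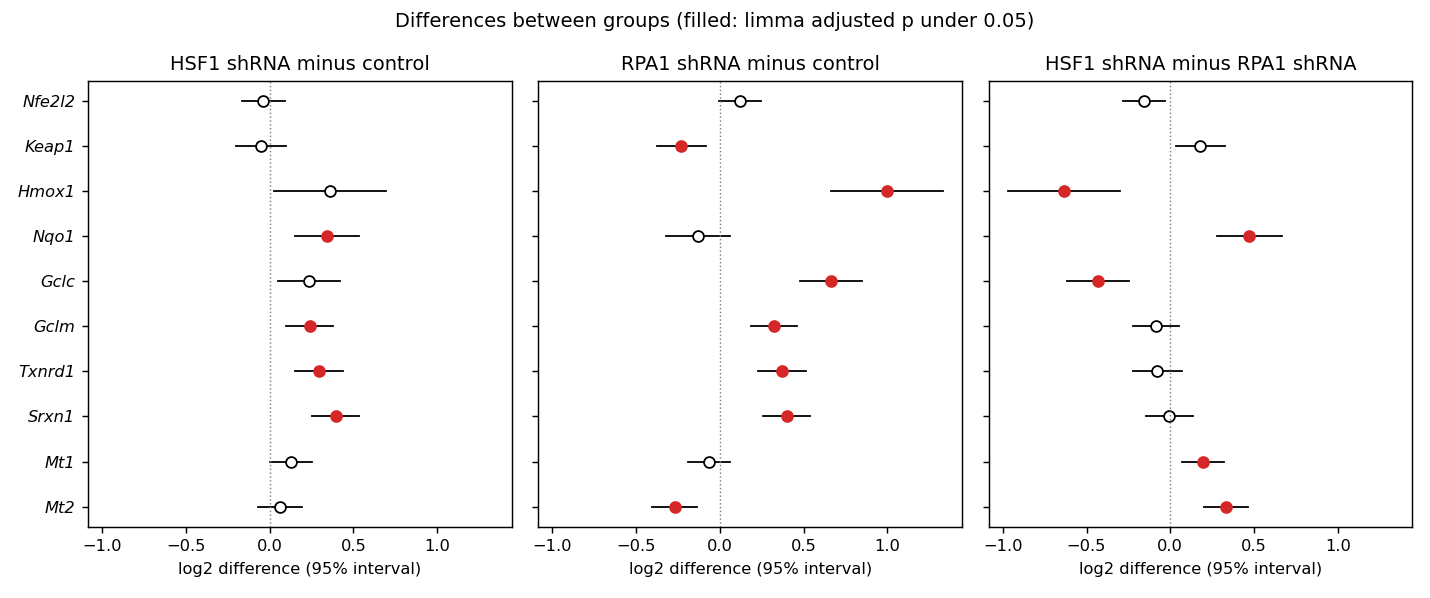
Log2 difference of each member in the 3 comparisons with its 95% interval from limma, filled where the adjusted p was under 0.05. Filled points number 4 for HSF1 shRNA, 7 for RPA1 shRNA and 5 for the direct comparison.

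HSF1 shRNA set directly against RPA1 shRNA asked which members the knockdowns changed to a different degree. Of the 10 members 5 passed, 3 higher and 2 lower under HSF1 shRNA, against 24.4% of genes called, 14.7% higher and 9.71% lower. Hmox1 was lower by 0.63 ± 0.15 on the log2 scale (-0.63, limma adjusted p = 0.013) and Gclc by 0.43 ± 0.08 (-0.43, 0.0047). Higher under HSF1 shRNA were Nqo1 (0.47 ± 0.09, limma adjusted p = 0.0038), Mt2 (0.33 ± 0.06, 0.0035) and Mt1 (0.19 ± 0.06, 0.031). In 7 of 10 members the groups did not overlap, against 34.5% of genes.

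The Hmox1 difference lost its call without RPA1 shRNA array 1 (-0.59, limma adjusted p = 0.052), which left 1 member lower, and with only the 6 arrays compared (0.052). That of Mt1 was called in 7 of 16 alternatives, with adjusted p-values from 0.018 to 0.13. Srxn1 differed by -0.00 ± 0.06 (limma adjusted p = 0.97, 95% interval -0.14 to 0.13), Txnrd1 by -0.08 ± 0.06 (0.45, interval -0.22 to 0.07) and Gclm by -0.09 ± 0.06 (0.37, interval -0.22 to 0.05). For Nfe2l2 (-0.16 ± 0.06, limma adjusted p = 0.073) and Keap1 (0.18 ± 0.07, 0.078) the groups did not overlap, yet neither passed. Without RPA1 shRNA array 3 both did, at -0.21 (0.0065) and 0.24 (0.011), and Nfe2l2 also did with each of the 3 scalings (adjusted p = 0.046, 0.032 and 0.033).

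**Figure D4:**
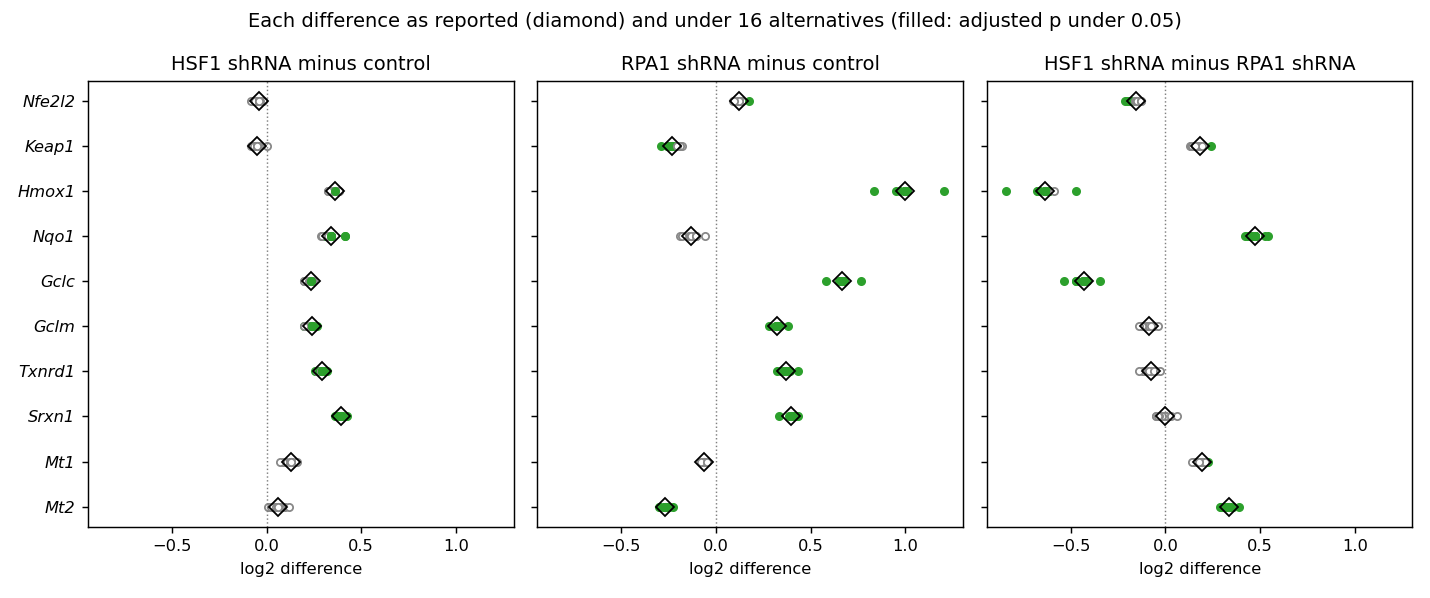
Log2 difference of each member as reported (diamond) and under 16 alternatives (circles, filled where the limma adjusted p was under 0.05), by comparison. The circles of Hmox1 spread from 0.83 to 1.20 under RPA1 shRNA, and those of Srxn1 are filled in both comparisons with the control.

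The wider pathway was taken from 61 further genes in 7 groups by role, of which 59 were tested. Under HSF1 shRNA 16 rose, 4 fell and 39 did not pass, with a median of 0.11. With the quantile, median and loess scalings 14, 12 and 13 rose there, and 4 fell with each. Under RPA1 shRNA 17 rose, 13 fell and 29 did not pass, with a median of 0.05. Of all genes 9.89% were higher and 6.21% lower under HSF1 shRNA, and 15.4% and 14.7% under RPA1 shRNA. The counts by role below are to be read against these shares, which some of them come near. Leaving out array 2 or 3 of the control group or of the HSF1 group left 1 fall under HSF1 shRNA, and leaving out control array 3 left 10 rises. The falls under RPA1 shRNA came to 5 and 6 when control array 3 or 2 was left out, and to 7 and 8 when array 1 or 2 of the RPA1 group was.

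Among 10 partners and regulators of NRF2, 3 rose and 1 fell under HSF1 shRNA, and 3 rose and 4 fell under RPA1 shRNA. The small MAF genes Maff and Mafk, whose products pair with NRF2 and with BACH1, rose in both. Maff read 7.91, 8.04 and 8.00 in the control arrays, 8.79, 8.86 and 8.83 under HSF1 shRNA and 9.11, 9.23 and 9.26 under RPA1 shRNA. These are rises of 0.84 ± 0.06 (limma adjusted p = 6.8e-05) and 1.22 ± 0.06 (2.7e-06). Mafk rose by 0.79 ± 0.06 (limma adjusted p = 0.00011) and 1.04 ± 0.06 (6.5e-06). Mafg, the third of that family here, rose under RPA1 shRNA by 0.48 ± 0.09 (0.0036) and stood at -0.04 ± 0.09 under HSF1 shRNA (0.84).

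Of the related factor genes, some fell. Nfe2l1, which encodes NRF1, a factor of the same family that controls proteasome genes, fell by 0.46 ± 0.07 under HSF1 shRNA (limma adjusted p = 0.0018) and by 0.24 ± 0.07 under RPA1 shRNA (0.019). Omission of array 2 or 3 of the control group, or of array 1 or 2 of the RPA1 group, ended the latter call (0.055 to 0.079). Nfe2l3, the gene of NRF3, read 9.18, 9.13 and 9.26 in the control arrays and 7.85, 7.74 and 8.21 under RPA1 shRNA, a fall by 1.25 ± 0.10 (limma adjusted p = 3.2e-05). All RPA1 arrays were far below the control arrays. Under HSF1 shRNA its arrays read 8.93, 8.91 and 8.91, and the difference of -0.27 ± 0.10 did not pass (limma adjusted p = 0.11). Bach1, the repressor gene, fell by 0.28 ± 0.08 under RPA1 shRNA (limma adjusted p = 0.029), but omission of any control array, or of array 1 or 2 of the RPA1 group, ended that call (0.068 to 0.097), as did a fit to the control and RPA1 arrays alone (0.052). Under HSF1 shRNA Bach1 stood at -0.06 ± 0.08 (limma adjusted p = 0.68), and Bach2, its relative, passed in neither comparison (0.7 and 0.95).

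**Figure D5:**
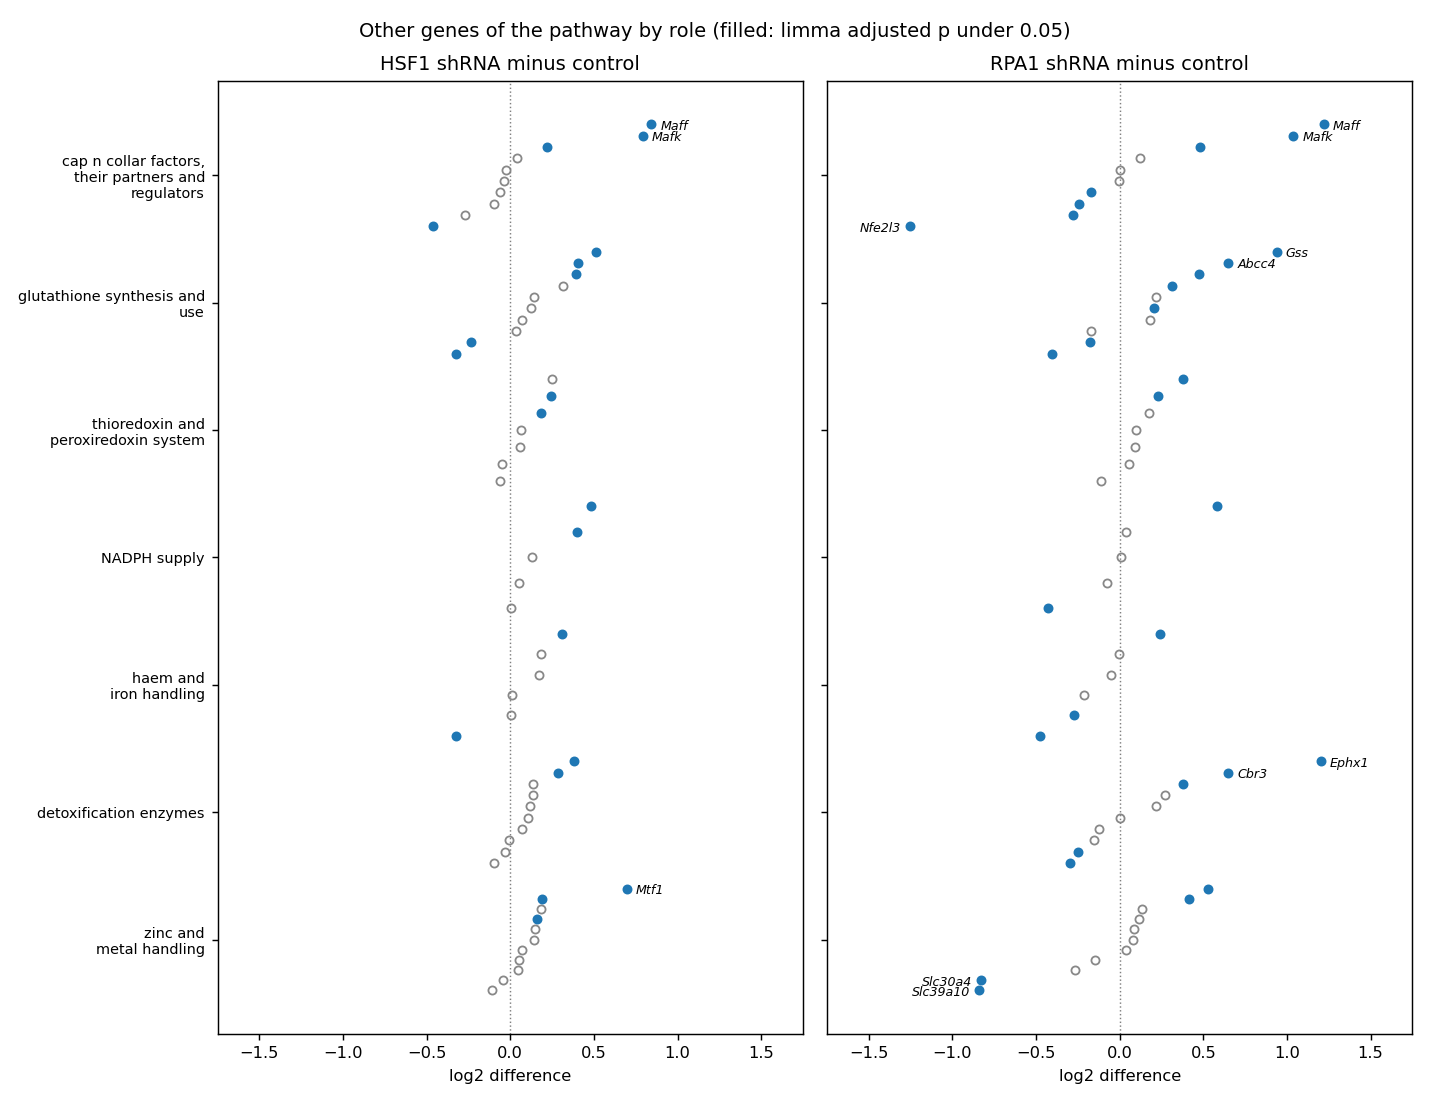
Log2 differences of 59 further genes of the pathway in 7 groups by role, under HSF1 shRNA (left) and RPA1 shRNA (right) against control, filled where the limma adjusted p was under 0.05. Called genes with a difference of at least 0.6 are named, and Maff and Mafk are the highest of their group on both sides.

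Of 10 genes of glutathione synthesis and use 3 rose and 2 fell under HSF1 shRNA, and 5 rose and 2 fell under RPA1 shRNA. Gss, which encodes glutathione synthetase, the enzyme after glutamate cysteine ligase, read 9.46, 9.60 and 9.56 in the control arrays, 9.97, 9.81 and 9.79 under HSF1 shRNA and 10.44, 10.72 and 10.26 under RPA1 shRNA. It rose by 0.94 ± 0.11 under RPA1 shRNA (limma adjusted p = 0.00018) and stood at 0.32 ± 0.11 under HSF1 shRNA (0.076), which passed when array 2 or 3 of the RPA1 group was omitted (0.02 and 0.021), with the control and HSF1 arrays alone (0.012) and among genes above the median gene (0.044). The order of its groups was that of Gclc and Hmox1. Abcc4, a transporter gene, rose by 0.51 ± 0.06 (0.00047) under HSF1 and 0.65 ± 0.06 (3.8e-05) under RPA1 shRNA. Gsr, the glutathione reductase gene, rose by 0.40 ± 0.08 under HSF1 shRNA (limma adjusted p = 0.011) and by 0.31 ± 0.08 under RPA1 shRNA (0.019). The first call was lost when control array 3 was omitted (0.051), the second when array 2 or 3 of the control group or array 1 or 2 of the RPA1 group was (0.056 to 0.077), and with the control and RPA1 arrays alone (0.054). Slc7a11, the cystine transporter gene and a known NRF2 target, fell by 0.32 ± 0.09 under HSF1 shRNA (limma adjusted p = 0.038), a call lost when array 2 or 3 of either the control or the HSF1 group was omitted (0.11 to 0.14) or array 2 of the RPA1 group was (0.05), and with the replicate number as a block (0.07). Under RPA1 shRNA it stood at -0.17 ± 0.09 (limma adjusted p = 0.19).

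The NADPH group gave 2 rises and 0 falls of 5 under HSF1 shRNA and 1 rise and 1 fall under RPA1 shRNA. Pgd, a gene of the pentose phosphate pathway, rose by 0.48 ± 0.06 (limma adjusted p = 0.001) under HSF1 shRNA and by 0.58 ± 0.06 (0.00011) under RPA1 shRNA. Me1, the malic enzyme gene, rose by 0.40 ± 0.06 (limma adjusted p = 0.0028) under HSF1 shRNA and stood at 0.04 ± 0.06 (0.71) under RPA1 shRNA. Of 7 thioredoxin and peroxiredoxin genes 2 rose and 0 fell under each knockdown, and Txn1, the substrate gene of thioredoxin reductase, stood at 0.06 ± 0.05 (0.48) and 0.05 ± 0.05 (0.44). Of 6 haem and iron genes 1 rose and 1 fell under HSF1 shRNA, and 1 rose and 2 fell under RPA1 shRNA. In the direct comparison Slc40a1, the iron exporter gene, was higher under HSF1 than RPA1 shRNA by 0.78 ± 0.06 (limma adjusted p = 9.7e-05). Against the control it rose by 0.31 ± 0.06 (0.011) under HSF1 shRNA and fell by 0.48 ± 0.06 (0.00045) under RPA1 shRNA. The signal of Slc40a1 was low, with a mean of 7.20 at percentile 32.5 of all genes.

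Detoxification enzymes gave 2 rises and 0 falls of 10 under HSF1 shRNA and 3 rises and 2 falls under RPA1 shRNA. Ephx1, the microsomal epoxide hydrolase gene, read 9.64, 9.78 and 9.80 in the control arrays, 9.92, 9.78 and 9.84 under HSF1 shRNA and 11.15, 11.21 and 10.46 under RPA1 shRNA. It rose by 1.20 ± 0.17 under RPA1 shRNA (limma adjusted p = 0.00054), and array 3 was again the lowest of that group. In the direct comparison Ephx1 stood at -1.10 ± 0.17 (0.0016) and Cbr3, a carbonyl reductase gene, at -0.66 ± 0.11 (0.0031), while Nqo2, a relative of Nqo1, was higher under HSF1 shRNA by 0.63 ± 0.08 (0.00053). Against the control Nqo2 rose by 0.38 ± 0.08 under HSF1 shRNA (limma adjusted p = 0.0084) and fell by 0.25 ± 0.08 under RPA1 shRNA (0.032). Omission of any control array, of array 2 of the HSF1 group or of array 1 or 2 of the RPA1 group ended the latter call (0.051 to 0.11), as did a fit to the control and RPA1 arrays alone (0.08). Cbr3 rose by 0.65 ± 0.11 under RPA1 shRNA (limma adjusted p = 0.0021) and stood at -0.01 ± 0.11 under HSF1 shRNA (0.98).

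Of 11 zinc and metal genes 3 rose and 0 fell under HSF1 shRNA, and 2 rose and 2 fell under RPA1 shRNA. Mtf1, the gene of the factor that drives metallothionein transcription, read 9.80, 9.92 and 9.84 in the control arrays, 10.59, 10.49 and 10.58 under HSF1 shRNA and 10.27, 10.31 and 10.58 under RPA1 shRNA. It rose by 0.70 ± 0.08 (limma adjusted p = 0.00064) and 0.53 ± 0.08 (0.00093), whereas neither Mt1 nor Mt2 was called higher in either comparison. Mt1 stood at 0.13 ± 0.06 under HSF1 shRNA (limma adjusted p = 0.16), with its 3 arrays above all control arrays. The other metallothionein genes on the array, Mt3 and Mt4, passed in neither comparison with the control (adjusted p from 0.21 to 0.64). Slc39a10, a zinc importer gene, fell by 0.84 ± 0.07 under RPA1 shRNA (limma adjusted p = 4.3e-05) and stood at -0.11 ± 0.07 under HSF1 shRNA (0.39). Slc30a4, a zinc exporter gene, read 9.71, 9.58 and 10.86 under RPA1 shRNA and 10.81, 10.91 and 10.92 in the control arrays. Its fall by 0.83 ± 0.27 (0.043) came from arrays 1 and 2 and was called in 7 of 16 alternatives.

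Genes with the most similar pattern over the 9 arrays were found by Pearson correlation, as a description, and are named for some members. The arrays share their 3 groups, so any gene with the same group order scores high. For Hmox1 they were Endod1 (r = 0.997), Arfgef2 (0.994) and Pgap6 (0.994), and 5.28% of 19928 genes reached r of 0.9. For Gclc they were Polk (r = 0.995), Fam71f1 (0.994) and Dhrs11 (0.994), with 5.20% at 0.9. Srxn1 was most like Itpa (r = 0.989), Arel1 (0.987) and Pim2 (0.984), and Mt2 most like Cdkal1 (0.988), Lca5 (0.985) and Spred1 (0.984). Mt1 had the fewest companions, with 12 genes at 0.9 and Upk3a (r = 0.965) the nearest. Among the members themselves Hmox1 and Gclc had r = 0.991, Srxn1 and Txnrd1 0.955, Srxn1 and Gclm 0.929, and Mt1 and Mt2 0.694. Other pairs ran opposite, such as Keap1 with Gclc (-0.901) and Hmox1 (-0.894), and Nfe2l2 with Mt2 (-0.829). Nqo1 had -0.265 with Hmox1 and -0.325 with Gclc.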

How the data were processed

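Labelled cDNA from 200 ng of total RNA per sample was hybridised to 9 1-colour arrays. The deposited values are log2 signals made by the authors with RMA in Partek 6.5, per the submitters' processing notes. The log2 scale was inferred from the values, since the notes give none, and signal over background was not measured here. Genome build and probe annotation behind them are not given in the sources used here.

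Of 35557 rows 21789 had 1 gene symbol in the annotation table of the array, 1621 several and 12147 were not listed. Symbols were checked by gene identifier against RefSeq. The row with the highest mean over 9 arrays stood for a gene, which left 19938 genes, with no filter on dim genes. R 4.3.3 and limma 3.58.1 fitted 1 mean per group to all 9 arrays, with 6 residual and 3.51 prior degrees of freedom. The 3 comparisons were tested after empirical Bayes moderation, two-sided, and a gene was called at a Benjamini-Hochberg adjusted p under 0.05 over all genes of the comparison. The procedure was run on simulated data with independent normal noise and few changed genes. Those data lacked the equal values and the deviating array seen here, so that run checked the code and not the calls reported. Differences carry limma's standard error, and only 3 arrays per group limit the precision.

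The members, the lists by role, the markers and the motifs were chosen with earlier results of these data known. Named were all members and up to 8 called genes of the other pathway genes per comparison with the largest differences. Nfe2l3, Slc39a10, Gss and Mafg were among the 8 of the direct comparison, but only their differences from the control were given. The 3 genes most correlated with a member were named for Hmox1, Gclc, Srxn1 and Mt2, and the nearest gene for Mt1. Bach1, Bach2, Slc7a11, Txn1, Mt3, Mt4, Cd68, Lyz2 and Csf1r, and any other pathway gene in a comparison where it was not among the 8, were named after their values were seen. Alternatives were 3 scalings, a filter on dim genes, the mean of all rows of a gene, only the 6 arrays compared, the replicate number as a block, and each array left out. Same-numbered arrays did not deviate together (correlation of their deviations from -0.16 to 0.09 over 9 pairs), so the numbers were not taken as pairs.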

Additional observations from a re-analysis of the deposited data

Results flagged for a closer look

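The direct comparison is a test of whether a member's change differed between the knockdowns, and 5 members passed it at a limma adjusted p under 0.05. Hmox1 stood at -0.63 (HSF1 minus RPA1 shRNA, log2, adjusted p = 0.013) and Gclc at -0.43 (0.0047), so both were higher under RPA1 shRNA in all 3 arrays against all 3. Nqo1 stood at 0.47 (0.0038), Mt2 at 0.33 (0.0035) and Mt1 at 0.19 (0.031), higher under HSF1 shRNA with no overlap of arrays. For Nqo1 this sets a rise under HSF1 shRNA beside signals within the control range or just below it under RPA1 shRNA.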

How the results depend on the processing

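Each member's difference was recomputed under 16 alternatives, which gave 480 values over 3 comparisons. Of these 437 kept their direction and side of the threshold, 27 lost and 13 gained a call, and 3 changed sign. With 1 array omitted at a time, Keap1 under HSF1 shRNA ranged from -0.0787 to 2e-04 and Srxn1 in the direct comparison from -0.0387 to 0.0599, which are the members that changed sign, none of them called. Among the other named genes the ranges that crossed 0, again with no call, were -0.0437 to 0.0469 for Cbr3 and -0.072 to 0.0093 for Mafg under HSF1 shRNA and -0.01 to 0.16 for Gsr in the direct comparison. With only the 6 arrays compared, 1 member and 8 other pathway genes fell under RPA1 shRNA and 1 member was lower in the direct comparison. The cause was not tested. With the replicate number as a block, 2799, 5692 and 4414 genes passed in the 3 comparisons, against 3210, 5998 and 4863. Mt1 then lost its call in the direct comparison (replicate block, adjusted p = 0.058). For 0 of 9 arrays did the 2 most correlated arrays of the other groups both carry its own number. The single most correlated array did so in some, as for array 3 of the control and RPA1 groups (correlation of deviations 0.0653). Leaving out 1 array gave 1 to 6 member rises under HSF1 shRNA, 5 to 6 rises and 1 to 2 falls under RPA1 shRNA, and 2 to 3 higher and 1 to 3 lower members in the direct comparison. For the other pathway genes these ranges were 10 to 19 rises and 1 to 5 falls, 14 to 20 and 5 to 13, and 11 to 17 and 8 to 12. For all genes they were 1145 to 2869 rises and 706 to 1827 falls under HSF1 shRNA, 2287 to 3691 and 2237 to 3554 under RPA1 shRNA, and 1899 to 3760 and 1269 to 2779 in the direct comparison. The share of HSF1 calls that were higher was 61.4%, and 52%, 48.1% and 49.4% with quantile, median and loess scaling. Without HSF1 shRNA array 1 that share was 50.2%. In the direct comparison the share was 60.2%, against 51.4%, 47.6% and 51.4% with the same scalings. Correlations of each member with its 3 most similar genes, also those not named, stayed between 0.802 and 0.999 over the 3 scalings and 9 omissions.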
